A study of Mus musculus with 14 samples.

Results

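A set of 8 genes of cholesterol metabolism, Hmgcs1, Idi1, Fdft1, Sqle, Lss, Cyp51, Dhcr7 and Insig1, was followed in RNA sequencing libraries of mouse hippocampus. They were chosen by gene symbol, as 8 of the 18723 genes with an assembled transcript in any library. All 8 had a value in each of the 14 libraries and so passed the filter that left 16568 genes for testing. Cells make cholesterol from acetyl-CoA through a chain of enzymes that leads by way of mevalonate, isoprenoids, squalene and lanosterol to the sterol itself. The SREBP transcription factors switch these genes on together when sterol in the endoplasmic reticulum is low, and INSIG proteins hold SREBP and its escort SCAP back when sterol is plentiful. Brain makes nearly all of its own cholesterol, much of it in glia and in the oligodendrocytes that build myelin during postnatal life.

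The mice were C57BL6 and 30 days old. They were either wild type (KMT2D+/+) or heterozygous for the Kmt2d allele written KMT2D+/bGeo, which concerns a histone methyltransferase gene, and they received TAK-418 or vehicle. TAK-418 inhibits LSD1, the histone demethylase encoded by Kdm1a, and was given by gavage at 1 mg/kg/day for 2 weeks from the age of 2 weeks; the vehicle was methylcellulose. Vehicle was given to 3 wild types and 3 mutants and TAK-418 to 5 wild types and 3 mutants, although the series design states 3 to 4 mice per group. The labels give no replicate numbers and do not name the animal behind each sample, so p-values measure the spread between these samples, and replicate numbers below only tell libraries apart. The labels name no promoter or Cre that would limit the allele to a cell type.

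Values are scaled abundances, on the FPKM scale (fragments per kilobase of model, relative to depth), which allows genes of different length to be compared. The deepest library, wild-type TAK-418 replicate 1, had a relative depth of 168 M, and the other 13 ranged from 35.1 to 59.98 M. Kmt2d ranged from 12.5 to 18.0 in the wild-type libraries and from 9.34 to 14.6 in the mutant libraries, which overlap; its log2 difference under vehicle was -0.23 (SE 0.17, limma adjusted p = 0.999). Markers of hippocampal fields were present in every library, with summed abundances of 484 to 601. The choroid plexus list stood apart in wild-type vehicle replicate 3 (summed abundance 7213) and mutant vehicle replicate 1 (5811), against 82.7 to 1093 elsewhere. Of its 8 markers, 4 were listed at 0 in some libraries (Clic6 and Kcnj13 in 4, Otx2 in 8, Tmem72 in 10). In bulk tissue, fewer cells of a type and less RNA per cell cannot be told apart.

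Promoter sequence is shown first for the 3 members with the longest stretches printed, because these genes share a known regulator and the results below turn on how far their RNA levels move together. The sequences come from RefSeq (GRCm38.p6), are written 5′ to 3′ on the gene's strand, and lie before the RefSeq start. Capitals mark matches to any of 4 motifs, searched on both strands. The sterol regulatory element was searched as TCACNCCAC. The NF-Y box was searched as CCAAT. The GC box was searched as GGGCGG. The E-box was searched as CACGTG. The Hmgcs1 stretch is chr13:119690101-119690350 on the plus strand, that of Insig1 is chr5:28071163-28071336 on the plus strand, and that of Lss is chr10:76531419-76531567 on the plus strand.
Hmgcs1: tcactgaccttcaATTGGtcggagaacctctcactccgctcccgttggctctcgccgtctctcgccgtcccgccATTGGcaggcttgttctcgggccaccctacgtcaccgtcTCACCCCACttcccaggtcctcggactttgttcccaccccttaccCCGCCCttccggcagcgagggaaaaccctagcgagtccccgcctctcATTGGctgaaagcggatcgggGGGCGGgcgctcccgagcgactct
Insig1: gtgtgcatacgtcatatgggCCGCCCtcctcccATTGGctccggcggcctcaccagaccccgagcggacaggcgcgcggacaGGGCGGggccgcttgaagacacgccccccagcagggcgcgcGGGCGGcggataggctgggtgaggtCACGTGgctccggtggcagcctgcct
Lss: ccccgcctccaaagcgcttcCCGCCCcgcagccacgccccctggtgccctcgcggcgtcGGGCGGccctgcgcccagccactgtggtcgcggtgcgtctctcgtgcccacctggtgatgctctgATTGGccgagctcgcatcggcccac

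Hmgcs1 held the sterol regulatory element letters 137 bases before its start, with NF-Y boxes at 237, 176 and 45 bases. An upstream window of 250 bases was in the table for 6 members, not for Sqle and Fdft1 (Dhcr7 had 3 windows, counted together). An NF-Y box was in 6 of the 6 and a GC box in 6 of the 6, whereas 33.8% and 32.7% of all 32851 windows held them. The sterol regulatory element was in 1 of the 6, against 1.05% of all windows, and the E-box was in 2 of the 6 (Insig1 and Dhcr7), against 6.02%. Of 13 other genes of synthesis or sterol control with a window, 12 had an NF-Y box, 11 a GC box, 2 an E-box and 0 the sterol regulatory element letters. Matches of different motifs did not overlap in the stretches printed. A match describes letters only.

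The 8 protein-coding genes lie at separate places in GRCm38 (GENCODE M21). Hmgcs1 is at chr13:119690379-119708260 and Idi1 at chr13:8885501-8892451, Fdft1 at chr14:63145150-63179578, Sqle at chr15:59315077-59331192 and Lss at chr10:76531588-76557138. Cyp51 is at chr5:4081145-4104746 and Insig1 at chr5:28071363-28078662, and Dhcr7 at chr7:143823145-143848410.

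The 8 genes differed widely in level. Hmgcs1 was the highest, with a mean of 149 ± 13.6 (SD, n = 14), above 96.1% of the genes found in all libraries. Fdft1 followed at 55.5 ± 11.1, Idi1 at 40.6 ± 5.30, Cyp51 at 33.3 ± 12.04, Sqle at 30.4 ± 4.98 and Insig1 at 28.7 ± 3.42 (SD, n = 14 each). Dhcr7 at 19.7 ± 2.30 and Lss at 8.08 ± 0.67 (SD, n = 14 each) were the lowest. No library of Hmgcs1 (lowest 121) came near the highest value of any other member (67.4, for Fdft1), and no library of Lss (highest 9.18) reached the lowest of Dhcr7 (15.3). The level of Fdft1 depends on the length of its assembled model, as given below, and the places of Cyp51 and Sqle are limited in the same way. The neighbours from Idi1 to Insig1 overlapped, so their order does not exceed the spread between libraries.

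**Figure D1:**
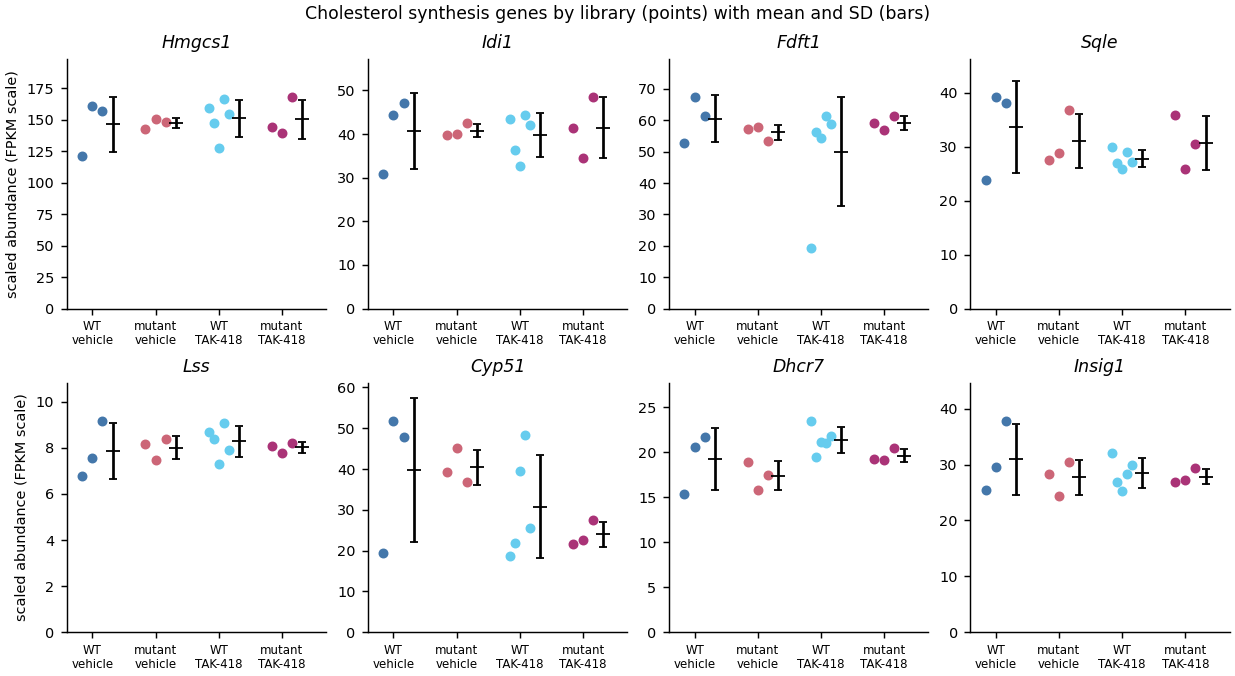
Scaled abundance (FPKM scale, axis from 0) of the 8 genes in each of the 14 libraries, by group; points are libraries and bars the mean with its SD. Groups overlap for nearly all genes, and a single low point stands out for Fdft1 (19.2, wild-type TAK-418). Cyp51 has low points in wild-type vehicle (19.5), in wild-type TAK-418 (18.7, 21.8 and 25.5) and in all mutant TAK-418 libraries (21.7 to 27.5).

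Hmgcs1 makes HMG-CoA, an early intermediate of the mevalonate pathway. Its abundance was 121, 161 and 157 in wild-type vehicle, 143, 151 and 148 in mutant vehicle, 159, 147, 128, 167 and 155 in wild-type TAK-418, and 144, 139 and 168 in mutant TAK-418 libraries. The 4 groups overlapped, and the lowest library was wild-type vehicle replicate 1. Its log2 difference between mutants and wild types was 0.02 under vehicle (95% interval -0.24 to 0.28, or 0.849-fold to 1.21-fold, limma adjusted p = 1) and -0.01 under TAK-418 (95% interval -0.23 to 0.22, or 0.850-fold to 1.17-fold, limma adjusted p = 0.999). Hmgcs1 was assembled as models of 10 and 11 exons, and the 11-exon model took 20.02% to 94.3% of its abundance, with a median of 37.3%. That share ranged from 22.1% to 94.3% in mutant vehicle and from 26.1% to 76.9% in wild-type vehicle libraries, so the groups overlapped.

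Idi1 interconverts the building blocks of isoprenoids, isopentenyl and dimethylallyl diphosphate. Its abundance was 30.8, 44.5 and 47.0 in wild-type vehicle, 39.8, 40.01 and 42.6 in mutant vehicle, 43.4, 36.4, 32.6, 44.3 and 42.0 in wild-type TAK-418, and 41.4, 34.4 and 48.5 in mutant TAK-418 libraries. Again the groups overlapped and wild-type vehicle replicate 1 was lowest. Group means differed by 0.02 on the log2 scale between genotypes under vehicle (SE 0.17, limma adjusted p = 1) and by 0.01 between treated and vehicle mutants (SE 0.17, limma adjusted p = 1).

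Lss closes the ring that forms lanosterol, the first sterol of the chain. Its abundance was 6.80, 7.57 and 9.18 in wild-type vehicle, 8.18, 7.46 and 8.41 in mutant vehicle, 8.70, 8.39, 7.30, 9.08 and 7.93 in wild-type TAK-418, and 8.10, 7.76 and 8.22 in mutant TAK-418 libraries. Both extremes lay within wild-type vehicle, and the other groups fell between them. Lss varied least, with a coefficient of variation of 8.31% against a median of 10.6% over genes found in all libraries. A minor Lss model of 23 exons was assembled in 6 of 14 libraries and took at most 22.96% of the abundance of the gene.

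Dhcr7 is the reductase that completes cholesterol in one branch of the pathway. Its abundance was 15.3, 20.6 and 21.7 in wild-type vehicle, 19.0, 15.8 and 17.5 in mutant vehicle, 23.5, 19.4, 21.2, 21.004 and 21.8 in wild-type TAK-418, and 19.3, 19.1 and 20.5 in mutant TAK-418 libraries. The 3 mutant vehicle values lay below all 5 wild-type TAK-418 values and below all 3 mutant TAK-418 values, and they overlapped with wild-type vehicle. The log2 difference of vehicle mutants from treated wild types was -0.29 (SE 0.10, unadjusted p = 0.0154, limma adjusted p = 0.424), so Dhcr7 did not pass the test. By unadjusted p, 5.17% of all genes were lower in this comparison, and in 3.58% the first group lay wholly below the second. Dhcr7 models also differed at their first exon. The first exon lay at the annotated start in 3 of 3 mutant vehicle, 0 of 3 mutant TAK-418, 2 of 5 wild-type TAK-418 and 1 of 3 wild-type vehicle libraries. Where it lay inside the gene the model was shorter, and the correlation of log2 abundance with log2 model length was -0.57 over the 14 libraries. With abundance multiplied by model length, a measure chosen after seeing the data that tracks reads per gene, the difference from treated wild types was -0.11 (SE 0.10, limma adjusted p = 0.718) and the groups overlapped.

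Cyp51 demethylates lanosterol, and its abundance moved most, with a coefficient of variation of 36.2%, above that of 90.6% of genes. It was 19.5, 51.8 and 47.7 in wild-type vehicle, 39.3, 45.2 and 36.9 in mutant vehicle, 18.7, 21.8, 39.5, 48.3 and 25.5 in wild-type TAK-418, and 21.7, 22.6 and 27.5 in mutant TAK-418 libraries. The 3 treated mutants lay below the 3 vehicle mutants, while the wild-type groups ran from 19.5 to 51.8 under vehicle and from 18.7 to 48.3 under TAK-418. The log2 difference of treated from vehicle mutants was -0.74 (SE 0.38, unadjusted p = 0.0760, limma adjusted p = 1), which did not pass the test.

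The length of the main Cyp51 model moved with these values. It was 4969 to 5020 bases in the 3 treated mutants and 2056 to 3160 bases in the 3 vehicle mutants, and over 14 libraries it ran from 2047 to 6818 bases (Pearson r of log2 length with log2 abundance -0.96). In 7 libraries the model passed the annotated 3′ end of Cyp51, by up to 3277 bases, on the side of the neighbouring gene Akap9, which overlaps Cyp51 in the annotation. With abundance multiplied by length, per 1000 bases, Cyp51 was 84.9, 93.2 and 117 in vehicle mutants and 107, 112 and 139 in treated mutants. These values overlapped, and the difference turned to 0.28 (SE 0.15, limma adjusted p = 1). The coefficient of variation fell to 14.3%. This measure still moved with model length, in the other direction (r with log2 length 0.69 for Cyp51, 0.71 for Sqle and 0.62 for Fdft1), so neither scale is free of it.

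Fdft1, squalene synthase, commits isoprenoids to sterol. Its abundance was 52.6, 67.4 and 61.5 in wild-type vehicle, 57.4, 57.8 and 53.3 in mutant vehicle, 19.2, 56.3, 54.2, 61.3 and 58.9 in wild-type TAK-418, and 59.0, 57.0 and 61.4 in mutant TAK-418 libraries. The groups overlapped, and the single low value belonged to wild-type TAK-418 replicate 1, the deepest library. There the model was 5788 bases long and passed the annotated 3′ end by 2918 bases, toward Ctsb, whereas it was 1413 to 1541 bases in the other 13 libraries. The highest Fdft1 value was 3.51 times the lowest by abundance and 1.32 times by abundance multiplied by length. TAK-418 against vehicle in wild types gave -0.37 (SE 0.30, limma adjusted p = 0.755), and -0.06 without wild-type TAK-418 replicate 1.

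Sqle, squalene epoxidase, carries out a further rate-limiting step. Its abundance was 23.9, 39.2 and 38.1 in wild-type vehicle, 27.6, 28.8 and 36.7 in mutant vehicle, 29.9, 27.0, 25.9, 29.0 and 27.2 in wild-type TAK-418, and 35.8, 25.9 and 30.5 in mutant TAK-418 libraries. The groups overlapped. Sqle models were 2289 to 3864 bases long, with 11 of 14 passing the annotated end, and log2 length and log2 abundance correlated at -0.88. TAK-418 against vehicle in wild types gave -0.24 by abundance (SE 0.16, limma adjusted p = 0.699) and 0.09 by abundance multiplied by length (SE 0.11, limma adjusted p = 0.807).

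**Figure D2:**
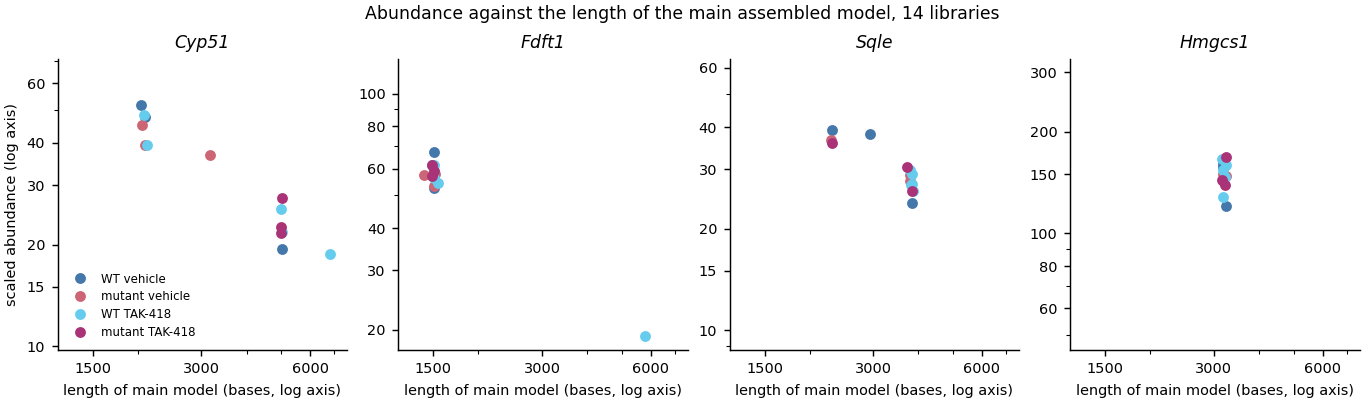
Scaled abundance against the length of the main assembled model (both log axes) for Cyp51, Fdft1, Sqle and Hmgcs1; each point is 1 of the 14 libraries, coloured by group. Cyp51 runs from 2047 to 6818 bases with abundance falling as length rises, Fdft1 has 1 long model of 5788 bases, and Hmgcs1 stays within 3154 to 3244 bases.

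Insig1 is not an enzyme but the sterol-sensing brake on SREBP, and is itself an SREBP target. Its abundance was 25.5, 29.6 and 37.9 in wild-type vehicle, 28.3, 24.3 and 30.6 in mutant vehicle, 32.04, 26.9, 25.2, 28.4 and 29.99 in wild-type TAK-418, and 26.8, 27.3 and 29.4 in mutant TAK-418 libraries. The highest value was in wild-type vehicle replicate 3, and the groups overlapped. Mutants against wild types under vehicle gave -0.14 (SE 0.13, limma adjusted p = 1), and 0.01 without wild-type vehicle replicate 3.

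With abundance multiplied by length, per 1000 bases, Insig1 was 58.5, 74.9 and 79.2 in wild-type vehicle, 55.2, 56.8 and 63.0 in mutant vehicle, 62.4, 54.9, 52.6, 58.0 and 61.1 in wild-type TAK-418, and 54.7, 52.8 and 60.4 in mutant TAK-418 libraries. Wild-type vehicle replicates 2 and 3 stood above every other library, and replicate 1 lay among them. The Insig1 models of wild-type vehicle replicates 1 and 2 were 2280 and 2528 bases long, against 2045 in replicate 3 and 1933 to 2326 in the other groups, and by abundance alone replicate 2 (29.6) lay within the range of the other groups. On that scale the log2 difference of Insig1 from wild-type vehicle was -0.27 in vehicle mutants (unadjusted p = 0.0276, limma adjusted p = 0.868), -0.28 in treated wild types (unadjusted p = 0.0124, limma adjusted p = 0.436) and -0.33 in treated mutants (unadjusted p = 0.0102, limma adjusted p = 0.722). These comparisons share the 3 wild-type vehicle libraries, and none passed the test after adjustment. Over all genes 2.73%, 3.37% and 2.12% were lower by unadjusted p. Without wild-type vehicle replicate 3, a choroid-rich library, the differences were -0.18, -0.20 and -0.24, and without wild-type vehicle replicate 1 they were -0.40, -0.41 and -0.46. Without both choroid-rich libraries they were -0.15, -0.20 and -0.24. By the same measure, log2 differences from wild-type vehicle were negative for 10 of 10 oligodendrocyte and myelin markers in vehicle mutants (median -0.12), 8 of 10 in treated wild types (median -0.05) and 10 of 10 in treated mutants (median -0.15), with 0 of 10 passing an adjusted or an unadjusted p of 0.05 in each. The medians of all tested genes by this measure were 0.0011, 0.010 and 0.00097. By abundance alone the marker medians were -0.16, -0.15 and -0.22. Markers under an unadjusted p of 0.05 by abundance included Mog in treated wild types (-0.33, limma adjusted p = 0.575) and Ugt8a in treated mutants (-0.40, limma adjusted p = 0.921). Over all genes, 3.27% and 2.23% were lower there by unadjusted p. The summed abundance of the 10 markers ranged from 3956 to 6112 in wild-type vehicle, 4365 to 4708 in mutant vehicle, 3763 to 5015 in wild-type TAK-418 and 3804 to 4836 in mutant TAK-418 libraries, with no marker at 0. Their part in the Insig1 values was not tested.

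Across the 7 contrasts, 0 of 8 genes passed an adjusted p of 0.05 in limma. The background was as low: 0.0% of tested genes were called for genotype under vehicle, 0.0121% for genotype under TAK-418, 0.00604% for TAK-418 in mutants, 0.00604% for TAK-418 in wild types, 0.0241% for mutant TAK-418 against wild-type vehicle mice, 0.0% for mutant vehicle against wild-type TAK-418 mice and 0.00604% for the interaction. By abundance multiplied by length it was also 0 of 8 in each, against 0.0121% of genes for both genotype contrasts, 0.0181% for TAK-418 in mutants, in wild types and in the interaction, 0.0241% for mutant TAK-418 against wild-type vehicle mice and 0.0302% for mutant vehicle against wild-type TAK-418 mice. By unadjusted p under 0.05, 0 of 8 were called in 6 of the contrasts, against 5.46% of genes for genotype under vehicle, 4.92% for genotype under TAK-418, 4.39% for TAK-418 in mutants, 8.44% for TAK-418 in wild types, 5.38% for mutant TAK-418 against wild-type vehicle mice and 4.42% for the interaction. The 1 of 8 called in mutant vehicle against wild-type TAK-418 mice was Dhcr7, against 9.23% of genes. For TAK-418 in mutants, 2 of 8 genes had groups that did not overlap, Cyp51 lower and Dhcr7 higher, against 8.18% of all genes; by abundance multiplied by length it was 0 of 8, against 8.7%. By that measure the groups did not overlap for 1 of 8, Dhcr7, in genotype under TAK-418 (means of 43.5 in mutants and 47.8 in wild types, against 4.19% of genes). The Dhcr7 groups all but touched, with the highest mutant at 45.748 and the lowest wild type at 45.75. The same held for 1 of 8, Cyp51, in mutant TAK-418 against wild-type vehicle mice (means of 119.5 and 102, groups not overlapping, against 9.74%). By abundance, the groups overlapped for both genes in these comparisons. The members' median log2 difference stayed between -0.06 and 0.02 in the 7 contrasts, and the median of all tested genes was at most 0.0046. The interaction of genotype with TAK-418 ranged from -0.41 (Cyp51) to 0.44 (Fdft1), with a smallest adjusted p of 0.977.

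**Figure D3:**
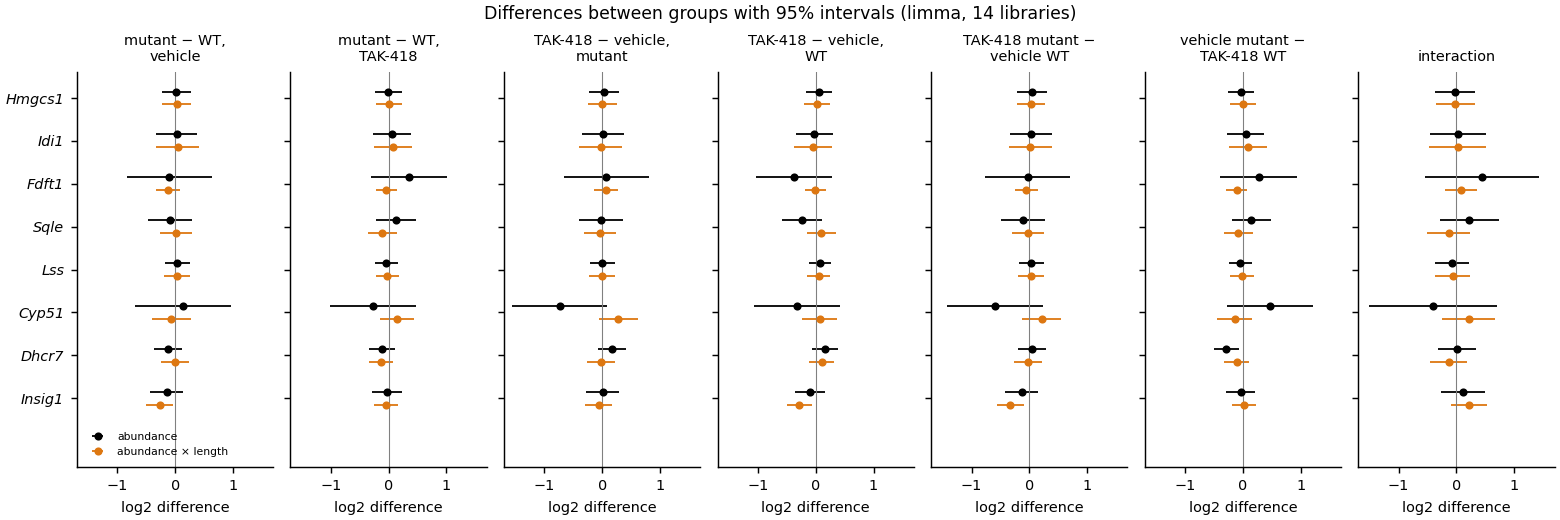
Log2 differences of the 8 genes in each of 7 contrasts with 95% intervals from limma over 14 libraries, by abundance (black) and by abundance multiplied by model length (orange). Intervals of Cyp51 and Fdft1 are wide by abundance (SE 0.38 and 0.34 for TAK-418 in mutants) and narrower by abundance multiplied by length (0.15 and 0.09).

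The authors' deposited tables give 1 FPKM value for each of 2 groups. Their headers do not name the groups, which were taken from the names of the tables: 8 of 8 group values lay closest to the named group of libraries, but the fold changes correlated best with the named pair in 3 of 4 tables, the exception being genotype under TAK-418 (r across loci 0.28 for the named pair and 0.30 for mutant vehicle over wild-type TAK-418). In the authors' deposited table for genotype under vehicle, Hmgcs1 was 109 in wild types and 111 in mutants. In the authors' deposited tables Cyp51 stayed within 21.01 to 22.9 in all 4 comparisons and Fdft1 within 25.6 to 27.7. In the authors' deposited tables Fdft1 was thus near Idi1 (25.8 to 26.5) and Sqle (28.1 to 28.8), so the order of levels between Hmgcs1 and Dhcr7 is not settled. None of the 8 genes had a q under 0.05 in the authors' deposited tables, where 0.224% of tested loci did for genotype under vehicle, 0.218% for genotype under TAK-418, 0.324% for mutant TAK-418 against wild-type vehicle mice and 0.611% for mutant vehicle against wild-type TAK-418 mice. The smallest p of a member was that of Insig1, 24.1 in wild-type vehicle and 20.03 in mutant TAK-418 mice in the authors' deposited table (log2 fold change -0.27, p = 0.0334, q = 0.881). Dhcr7 was 16.3 in wild-type TAK-418 and 14.8 in mutant vehicle mice in the authors' deposited table (p = 0.175, q = 0.699).

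Although group means stayed close, several of the genes varied together from library to library. Hmgcs1 and Idi1 were the closest pair over the 14 libraries, with Pearson r = 0.92 and Spearman rho = 0.93 (permutation p = 3e-05 for each, adjusted over 28 pairs 0.00084). Without the 2 libraries farthest from the median of Hmgcs1 the Hmgcs1 and Idi1 correlation was 0.82, and for deviations from group means it was 0.95. By abundance multiplied by length it was 0.90. Pearson r was positive in 23 of 28 pairs, with a median of 0.46 (0.62 for deviations from group means). The median was 0.34 when each pair left out the 2 libraries farthest from the median of only 1 of its genes. Each negative pair held Fdft1 (r from -0.32 with Dhcr7 to -0.0002 with Idi1), and rho in these pairs was positive (0.18 to 0.65). By abundance multiplied by length, r was positive in 27 of 28 pairs. Of the 28 pairs, 7 had an adjusted permutation p under 0.05 by r, and 5 by rho. That count rests on single libraries: it was 1 of 28 without wild-type vehicle replicate 1, 1 of 28 without wild-type vehicle replicate 3, and 1 of 28 by abundance multiplied by length.

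**Figure D4:**
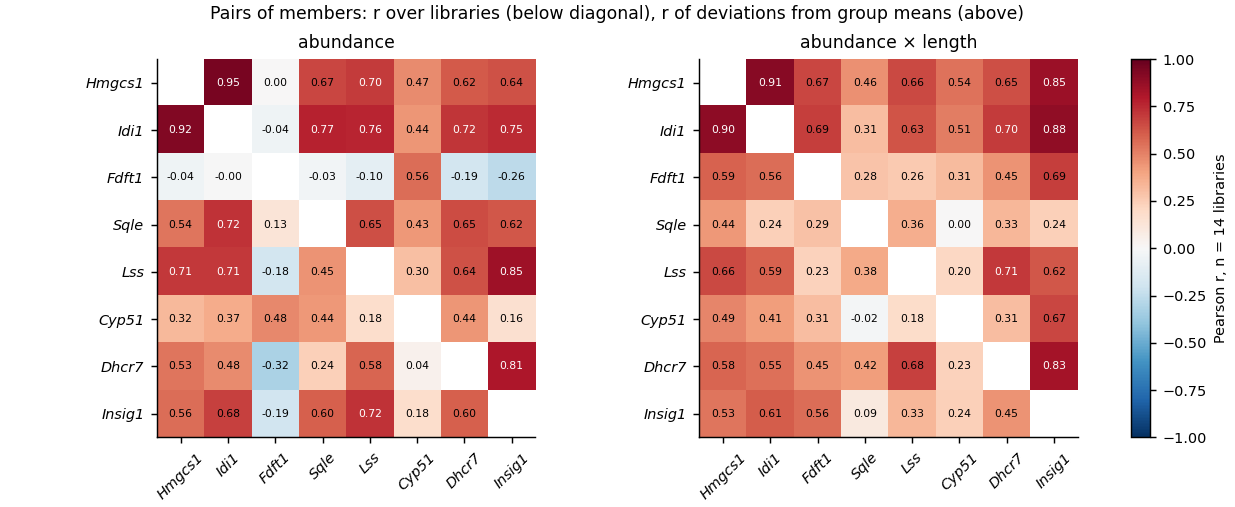
Pearson r for each pair of the 8 genes over 14 libraries (below the diagonal) and for deviations from group means (above), by abundance (left) and by abundance multiplied by length (right). The Hmgcs1 and Idi1 cell is the highest in both (0.92 and 0.90). Fdft1 correlates with Hmgcs1 at -0.04 by abundance and at 0.59 by abundance multiplied by length.

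A mean of the 8 genes' standardized log2 values summarised each library. It was lowest in wild-type vehicle replicate 1 (-1.55), where 5 of 8 genes had their lowest value, and highest in wild-type vehicle replicate 3 (1.27), where 7 of 8 were among the 3 highest. The other 12 libraries lay between -0.65 and 0.70, so both extremes belonged to 1 group. Over libraries this mean followed the summed abundance of 8 oligodendrocyte lineage markers (r = 0.76, rho = 0.81). Without the 2 libraries farthest from the median, r was 0.69. The markers were Pdgfra, Cspg4, Olig1, Olig2, Sox10, Gpr17, Enpp6 and Bcas1, a list that mixes precursors with differentiating cells. The mean followed myelin markers less closely (r = 0.60, rho = 0.63, 0.51 without those 2). The 8 lineage markers, none at 0, summed to 166 to 287 in wild-type vehicle, 177 to 257 in mutant vehicle, 179 to 254 in wild-type TAK-418 and 155 to 248 in mutant TAK-418 libraries. Bcas1 had the highest mean of the 8 (84.5), against 13.6 for Pdgfra and 4.40 for Cspg4. Olig1 ran from 1.69 to 86.0 (median 69.0) and Olig2 from 2.51 to 19.8, so the sum carries the swing of Olig1. The part of Olig1 in the correlation with this sum was not tested. Correlations were 0.02 with neuron, -0.15 with astrocyte, -0.33 with microglia, 0.485 with markers of thalamus, a neighbouring brain region (rho = 0.49, 0.31 without the 2 farthest) and 0.40 with choroid plexus markers (0.04 without those 2), and -0.07 with relative depth. By abundance multiplied by length they were 0.70 with lineage (0.56 without the 2 farthest) and 0.48 with myelin markers (0.30 without the 2 farthest). Without those 2, r by that measure was 0.40 with relative depth, 0.35 with endothelial and mural and 0.35 with astrocyte markers. It was 0.12 with thalamus, -0.22 with choroid plexus, -0.25 with microglia, -0.30 with neuron and -0.43 with hippocampal field markers. The myelin value thus lay below those of depth and of the endothelial and astrocyte lists. These are descriptions over 14 libraries that share their scaling, and the part of cell composition was not tested.

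The gene whose pattern was most like that mean, of 13265 with a value in all libraries, was Nsdhl (r = 0.93, rho = 0.91), an enzyme that acts after Cyp51. Mvd, of the mevalonate pathway, was next (r = 0.87), followed by Sema6a, Mcam and Desi1 (r = 0.87 each). Among the 100 most alike of the 13265 genes were 6 of 14 other synthesis genes. So were 2 of 10 fatty acid synthesis genes, Scd1 and Elovl6, 1 of 10 sensing and uptake genes, and 0 of 9 turnover and transport genes. These counts depend on the measure. By abundance multiplied by length they were 5 of 14, 4 of 10, 0 of 10 and 1 of 9 (Soat1), in the same order. The median r was 0.56 for other synthesis genes and 0.60 for fatty acid synthesis genes, against -0.08 for sensing and uptake, 0.08 for turnover and transport, and -0.0039 for all genes. Without the 2 libraries farthest from the median, r was 0.62 for Elovl6, 0.59 for Acss2, 0.56 for Scd1 and 0.47 for Scd2. It was 0.25 for Acly and Me1, 0.20 for Fads1, 0.14 for Fasn, 0.09 for Acaca and 0.0076 for Fads2. For other synthesis genes it ran from -0.29 (Ebp) to 0.86 (Nsdhl), against -0.20 and 0.93 with all 14 libraries. The gene for SREBP-2 itself, Srebf2, had r = -0.08, Apoe, the main lipid carrier of brain, -0.16, and Cyp46a1, which clears cholesterol from neurons, -0.02. By abundance multiplied by length the most alike was Mvd (0.93), and Acss2 (0.87), Smad5 (0.86) and Cemip2 (0.86) were among the top 5, while Srebf2 had 0.40.

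**Figure D5:**
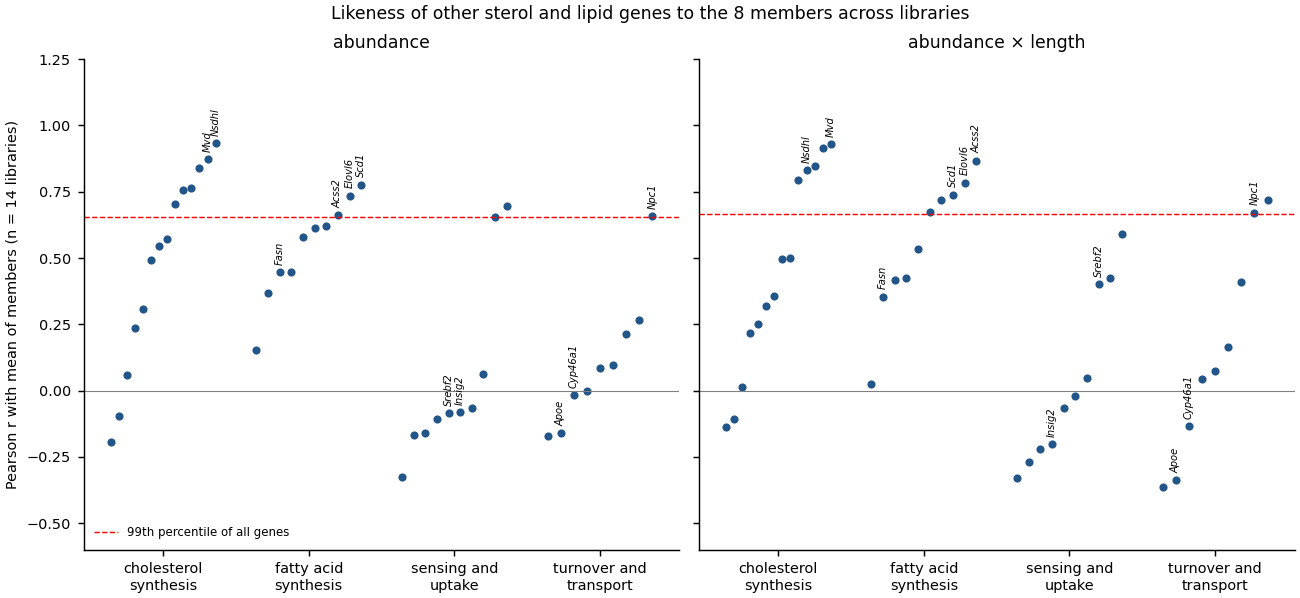
Pearson r of each gene of 4 sterol and lipid lists (points, some named) with the mean of the 8 genes over 14 libraries, by abundance (left) and by abundance multiplied by length (right); the dashed line is the 99th percentile of all genes (0.65 and 0.66). Nsdhl and Mvd lie above the line in both, and of the turnover and transport genes Npc1 lies above it in both (0.66 and 0.67).

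The rest of the pathway was as even between groups as the 8 genes. Of 15 other synthesis genes, 14 could be tested (Tm7sf2 was listed at 0 in all 14 libraries), and 0 were called in any contrast, even at an unadjusted p under 0.05. Srebf2 averaged 57.8 ± 2.58 in wild-type vehicle, 59.9 ± 0.65 in mutant vehicle, 63.9 ± 13.4 in wild-type TAK-418 and 54.9 ± 1.13 in mutant TAK-418 libraries (SD, n = 3, 3, 5 and 3). In the wild-type TAK-418 libraries the Srebf2 median was 58.2 and the maximum 87.9. By abundance multiplied by length, per 1000 bases, its means were 270 ± 11.6, 274 ± 10.3, 279 ± 7.02 and 262 ± 3.13 (SD, same groups and n). None of 12 sensing and uptake genes, 10 turnover and transport genes and 10 fatty acid synthesis genes passed an adjusted p of 0.05. By unadjusted p, Insig2, the sister of Insig1, was lower in treated than in vehicle wild types (27.8 against 30.8, log2 difference -0.14, SE 0.05, limma adjusted p = 0.482). The fatty acid synthase Fasn was higher there (55.0 against 47.9, 0.20, SE 0.07, limma adjusted p = 0.436). Over all genes, 3.27% were lower and 5.17% higher by unadjusted p in that comparison. In mutant vehicle against wild-type TAK-418 mice, the sterol exporter Abcg1 (17.8 against 20.7, log2 difference -0.21, SE 0.06, limma adjusted p = 0.356) and the fatty acid desaturase Fads2 (89.2 against 98.2, -0.14, SE 0.04, limma adjusted p = 0.393) were lower by unadjusted p, with groups that did not overlap. Over all genes, 5.17% were lower by unadjusted p there, and in 3.58% the first group lay wholly below the second. These genes were picked from their lists for their small unadjusted p. Lcat, which esterifies cholesterol on lipoproteins, was listed at 0 in 4 of the 5 wild-type TAK-418 libraries and at 26.2 in the other one. It was 26.8, 29.03 and 25.5 in wild-type vehicle, 32.1, 34.6 and 34.5 in mutant vehicle, and 27.4, 32.3 and 31.5 in mutant TAK-418 libraries, and its limma adjusted p was 0.264 or more in each contrast. A listing at 0 means that no assembled transcript was assigned to Lcat, and whether its RNA was absent was not tested. Cyp46a1 averaged 70.1 to 75.1 over the 4 groups and Apoe 901 to 1247. By abundance multiplied by length, per 1000 bases, Apoe averaged 1202 to 1432. Its mean was lowest in wild-type TAK-418 by both measures, but those libraries spread widely and overlapped each other group. They ran from 519 to 1320 by abundance and from 604 to 1431 (median 1338) by abundance multiplied by length.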

How the data were processed

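RNA of 14 hippocampus samples was analysed from deposited files. Per the file headers, the authors ran CLASS 2.1.7 on each library to assemble transcripts, each deposited with an abundance score; its FPKM scale was worked out from the values. Per the submitters' processing notes, FastQC, TopHat2 2.1.0 and build mm10 were used. In 4 comparison tables the authors deposited, each locus has a value for both groups (taken as FPKM), a log2 fold change, a p-value and a q-value; the groups come from the tables' names; their software is not given in the sources used here.

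Abundance was summed by GENCODE M21 gene, matching transcripts by a shared intron or, for single exons, by at least 50% overlap. Scaling factors were medians of ratios over 13273 genes. The filter asked for a value in 3 or more libraries, and tests ran on log2(value + 0.878) in limma 3.58.1 (R 4.3.3; 4 group means, trend, Benjamini-Hochberg); the fit was tested on simulated data. A fold change on this scale understates low genes. Correlations used 100000 permutations (Python 3.11.15, scipy 1.17.1). Genes overlapping Cyp51 (Akap9), Fdft1 (Ctsb), Hmgcs1, Idi1 and Lss make those values uncertain, since strand handling is not given in the sources used here.

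The members, lists and tests were chosen with earlier results of these data known. Named genes were the 8 members, Srebf2, Cyp46a1, Apoe, Kmt2d, Kdm1a, up to 3 genes of each list by unadjusted p, and the 5 genes most like the members' mean; some genes this selects are not reported here. Alternatives changed the pseudocount, scaling, filter, transcripts summed, model and libraries. Kdm1a averaged 32.7 to 34.6 over the 4 groups.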

Additional observations from a re-analysis of the deposited data

Results flagged for a closer look

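Fdft1 in wild-type TAK-418 libraries held a sample far from the others. Replicate 1 was the lowest of the 5, and its gap to the next library (19.2 against 54.2) was 0.831 of the whole range. It was the only one of 18 groups of values examined in this way that stood out, and chance alone gives about 1 in 20 groups. By abundance multiplied by model length, replicate 1 was the highest of the 5 (106 against 84.3 to 92.0), and its Fdft1 model was 5788 bases long. None of the 8 interactions of genotype with TAK-418 passed the test.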

How the results depend on the processing

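No paired analysis was possible because the labels give the samples no replicate numbers. In the 7 contrasts, 0 of 8 genes were called by limma in the data as reported and under each of 41 alternatives (40 for the interaction), with a smallest adjusted p of 0.166 over 2288 values; the number called by unadjusted p ranged from 0 to 2. None of the 8 had a q under 0.05 in the authors' deposited tables.

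A pair of alternatives was chosen after seeing the data: abundance multiplied by model length, and omitting the pair of libraries highest in choroid plexus markers. Multiplying by length turned the direction of 24 of all 56 gene and contrast values, Cyp51 in 7 of 7 contrasts. Of 13 followed singly, it turned 7: Dhcr7 for genotype under vehicle (0.0023), Fdft1 for genotype under TAK-418 (-0.042), Cyp51 (0.28) and Dhcr7 (-0.027) for TAK-418 in mutants, Sqle for TAK-418 in wild types (0.094), and Cyp51 in mutant TAK-418 against wild-type vehicle mice (0.22) and mutant vehicle against wild-type TAK-418 mice (-0.14). Without wild-type vehicle replicate 3, Insig1 turned for genotype under vehicle (0.0089) and in mutant TAK-418 against wild-type vehicle mice (0.019, also 0.019 without the choroid-rich pair). When each library was left out in turn, these Insig1 values ran from -0.27 to 0.0089 and from -0.26 to 0.019. Other turns by length were Cyp51 for genotype under TAK-418 (-0.27 to 0.14) and for TAK-418 in wild types (-0.33 to 0.07), Fdft1 in mutant vehicle against wild-type TAK-418 mice (0.27 to -0.11) and Sqle for genotype under TAK-418 (0.13 to -0.11). None of these values passed the test.

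The number of correlated pairs, 7 of 28, was 15 without library scaling, 0 with the highest transcript only, 1 by abundance multiplied by length, 1 without the choroid-rich pair, and 1 to 9 when each library was left out in turn. The median r ranged from 0.28 to 0.53 when each library was left out, and was 0.22 with the highest transcript only and 0.59 without scaling. Depth per gene is unknown beyond the relative totals, and with 3 libraries in most groups the 95% intervals for single genes allow the changes given by their bounds.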
